A study of Mus musculus with 24 samples.

Results

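Skeletal muscle of the head was followed through 10 genes that name its regulators, its contractile apparatus and its acetylcholine receptor: Myod1, Myf5, Myog, Acta1, Des, Myh3, Tnnt1, Chrna1, Chrnd and Chrng. Every probe whose annotated symbol was one of these genes was taken, which gave 15 of the 46643 probes on the array and 10 of the 19406 genes they name. Chrna1 and Chrnd had 3 probes each, Chrng had 2 and the other genes had 1. The arrays measured total RNA from the left or the right side of the head of (C3H/HeH x 101/H)F1 embryos, 4 embryos at each of the stages E8.5, E10.5 and E12.5, named for the days post coitum, so that 12 embryos gave 24 arrays. All embryos were of the same cross, with no mutant allele or treatment in any group. The labels call the samples brain, whereas the methods describe whole heads cut from the body and divided along the midline, and head tissues other than brain were therefore in the sample.

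Skeletal muscle forms when progenitors that express Myf5 or Myod1, both basic helix-loop-helix transcription factors, become myoblasts, leave the cell cycle under Myog and fuse into fibres. The fibres then assemble sarcomeres from actin, myosin and troponin and cluster acetylcholine receptors at the future synapse. Head muscles differ from trunk muscles in origin: most arise from unsegmented cranial mesoderm, while tongue and neck muscles come from somites. Early heart muscle uses several of the same sarcomere genes as young skeletal muscle.

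Mean deposited intensity ranged between 149.1 and 323.2 over the arrays, and the number of embryos (4 a stage) limited the precision. Neuronal markers increased with stage: 8 of 10 rose at E10.5 against E8.5 and 8 of 10 rose at E12.5 against E10.5, where 3.62% and 4.74% of all probes rose. This rise does not measure how much of a sample was brain, and it does not check the tissue label at E8.5. Embryo 1 at E12.5 stood apart from the other 3 embryos of that stage, with a summed signal of 48.5 over 8 lens markers, against 5658 to 11140 in the others, and 1099 over 14 cranial mesenchyme markers, against 3759 to 4950. Its neuronal sum was the highest, 25230 against 16910 to 17420. Principal component 2 of all probes (27.4% of the variance) separated the right sides into 2 sets on either side of the left sides: those of embryos 3 and 4 of every stage lay at 28.4 to 47.2 and those of embryos 1 and 2 at −31.9 to −20.4, against −13.1 to 1.21 for all left sides.

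Most of the muscle genes did not rise above a gauge of blank signal. Signals here are intensities after quantile normalisation, with negative values where a probe lay below its local background. As a gauge of blank signal, the 95th percentile of 1094 olfactory receptor probes, genes with little known role at these stages, was taken on each array and lay between 19.8 and 40.3. Of the 15 muscle probes, 10 exceeded it on 0 of 24 arrays, and only Tnnt1, Acta1 and Chrng exceeded it on 4 or more. Tnnt1 exceeded it on 24 arrays, Acta1 on 15 and Chrng on 6, all 6 at E12.5. Low signal was common on these arrays: 37.6% to 45.2% of all probes had a deposited value at or below 0. A filter that asked for a signal of 50 in at least 4 embryos kept 2 of the 10 genes. It kept 11657 of all 46643 probes.

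**Figure D1:**
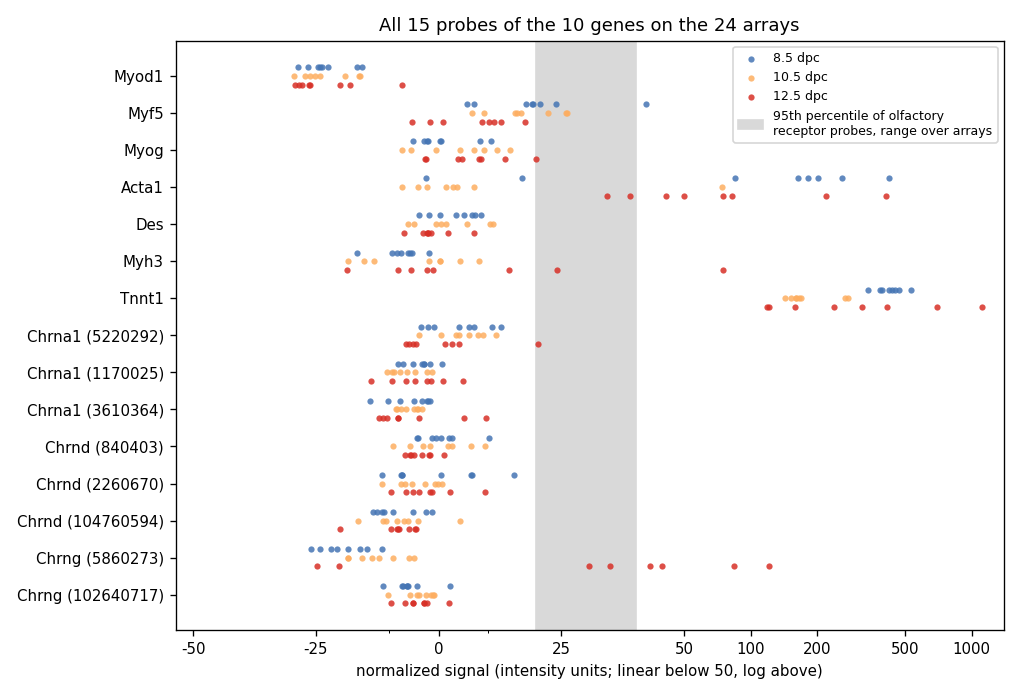
Normalized signal (intensity units, linear below 50 and log above) of the 15 probes on 24 arrays, one row per probe and one point per array, coloured by stage. The grey band is the range over arrays of the 95th percentile of olfactory receptor probes, 19.8 to 40.3, and only Tnnt1 lies right of it on every array.

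The regulators were not seen above the blank level apart from 1 array. Myod1, which commits cells to the muscle lineage, averaged −22.8 ± 2.59 at E8.5, −22.9 ± 3.87 at E10.5 and −23.0 ± 4.54 at E12.5 (SD, n = 4 embryos each). Myog, needed for myoblasts to differentiate, averaged 0.885 ± 5.77, 4.19 ± 7.51 and 6.72 ± 3.73 at these stages. Both genes overlapped between all pairs of stages, and neither passed the test in any comparison.

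Myf5, an early determination factor, was 30.1, 13.2, 19.2 and 15.6 in embryos 1 to 4 at E8.5. It was 21.4, 19.1, 20.8 and 8.04 at E10.5 and 10.7, 10.8, 6.14 and −0.458 at E12.5. All embryos at E12.5 lay under all embryos at E8.5, but only 1 array, the right side of embryo 1 at E8.5 with 42.3, was above its blank level of 40.3. The log2 fold change (log2FC) of E12.5 over E8.5 was −0.14 with an SE of 0.05 and a limma adjusted p of 0.0665. With the replicate number as a block the adjusted p was 0.0134, and for E12.5 over E10.5 it was 0.0479, against 0.201 without the block. With the block, 13.7% of all probes passed at E10.5 against E8.5, 13.9% at E12.5 against E10.5 and 24.9% at E12.5 against E8.5.

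Of the contractile genes, Tnnt1 and Acta1 carried nearly all of the signal. Tnnt1 encodes the slow skeletal form of troponin T, the subunit that ties the troponin complex to tropomyosin. Its signal was 447, 367, 443 and 459 in embryos 1 to 4 at E8.5, 152, 161, 221 and 215 at E10.5, and 120, 239, 905 and 328 at E12.5. The E8.5 embryos lay within 1.25-fold of each other and above every E10.5 embryo, whereas the E12.5 embryos spanned 7.56-fold and reached from below to above both other stages. Tnnt1 averaged 187 ± 35.6 at E10.5 and 429 ± 42.2 at E8.5, a log2FC of −0.85 with an SE of 0.33 that did not pass (limma adjusted p = 0.187). All stages share 1 estimate of the spread. Without embryo 3 at E12.5 the same log2FC passed with an adjusted p of 0.00827, and the log2FC of E12.5 over E8.5 passed as well, at −0.72 with an adjusted p of 0.0156, against −0.32 and 0.624 with that embryo.

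Acta1 encodes skeletal alpha-actin, the thin-filament actin of skeletal fibres, which young heart muscle also makes. Its signal was 293, 7.19, 171 and 193 in embryos 1 to 4 at E8.5. At E10.5 it was −0.581, −1.91, 37.7 and 2.42, and at E12.5 it was 42.6, 66.3, 315 and 54.6. Embryo 2 at E8.5 fell among the E10.5 embryos, and embryo 3 at E12.5 stood far over the other 3 of its stage. The log2FC of E10.5 over E8.5 was −1.01 with an SE of 0.36 (limma adjusted p = 0.142). It was −1.35 with an adjusted p of 0.0224 without embryo 2 at E8.5. At E12.5 every embryo was above every E10.5 embryo, with a log2FC of 0.77, an SE of 0.36 and an adjusted p of 0.309. Acta1 has close paralogs, including cardiac Actc1, and cross-hybridisation between them was not tested.

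Myh3 and Des were near blank. Myh3, the embryonic fast myosin heavy chain, averaged −7.69 ± 3.95 at E8.5 and −4.46 ± 9.38 at E10.5, and was −13.5, 19.2, 36.9 and −3.99 in embryos 1 to 4 at E12.5. Its 2 arrays above the blank level were the left side of embryo 3, at 74.8, and the right side of embryo 2, at 24.1. Des, the intermediate filament that links myofibrils, averaged 3.25 ± 4.37 at E8.5, 2.19 ± 1.20 at E10.5 and −1.20 ± 4.01 at E12.5.

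Of the acetylcholine receptor probes, 1 of Chrng was above the blank level on 6 arrays and all others on 0. Chrng encodes the gamma subunit of the fetal receptor, which the epsilon subunit replaces after birth. It was −19.0, −25.1, −19.6 and −13.1 in embryos 1 to 4 at E8.5 and −10.3, −9.07, −13.9 and −16.1 at E10.5. At E12.5 it was −22.5, 36.9, 102 and 40.2. Thus 3 of 4 embryos at E12.5 were above all 8 younger embryos, and embryo 1 was within the range of the youngest. The log2FC of E12.5 over E8.5 was 0.60 with an SE of 0.18 and a limma adjusted p of 0.0431, the only call among the 10 genes. No ratio of signals is given, since at E8.5 and E10.5 Chrng was above the blank level on 0 of 16 arrays. Against E10.5 the log2FC was 0.51 with an adjusted p of 0.153, and without embryo 1 at E12.5 it was 0.72 with an adjusted p of 0.00153. The call against E8.5 lies near its threshold: leaving out any one of the other 11 embryos ended it, with adjusted p of 0.0582 to 0.0982, while without embryo 1 at E12.5 it was 0.000262. The second Chrng probe stayed between −8.84 and −1.27 in all embryos, so the rise rests on 1 of 2 probes.

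Chrna1 and Chrnd encode the alpha and delta subunits, which the fetal and adult receptors share. Their 6 probes were above the blank level on 0 of 24 arrays, with the brightest averaging 4.35 ± 5.30 at E8.5, 4.91 ± 3.48 at E10.5 and 0.735 ± 7.59 at E12.5. The highest single value was 20.2, on an array at E12.5, from the same Chrna1 probe.

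**Figure D2:**
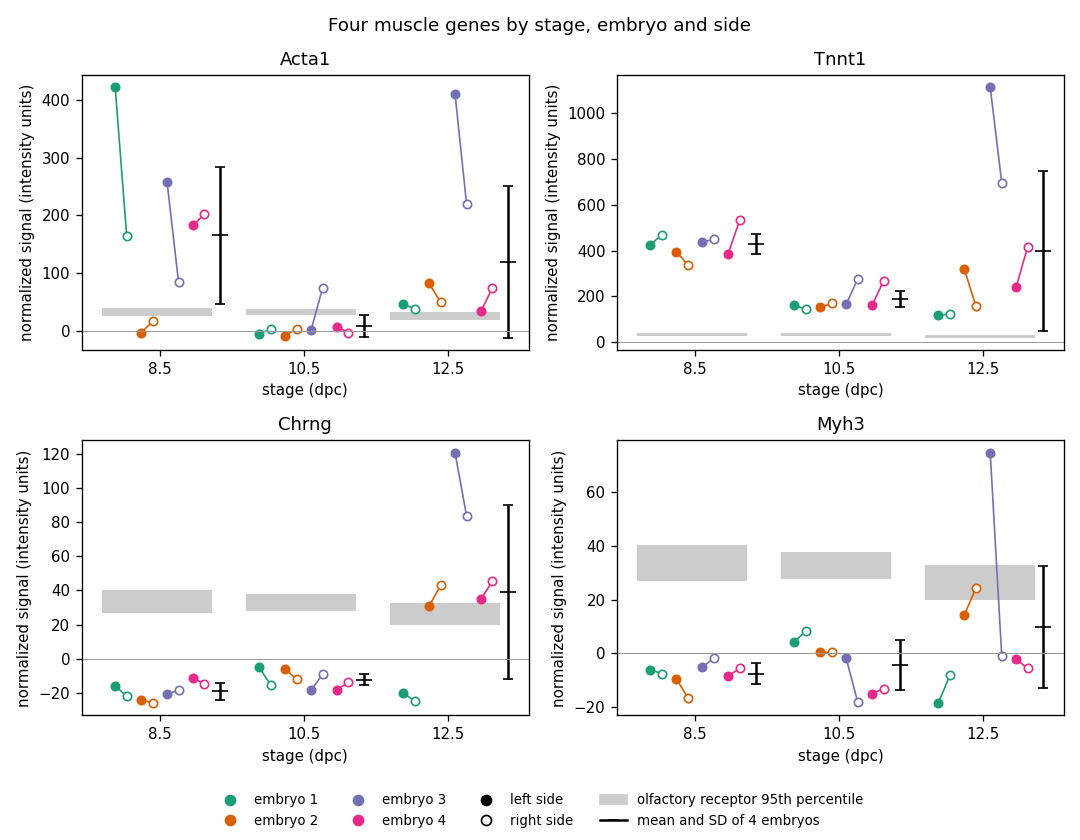
Normalized signal (intensity units) of Acta1, Tnnt1, Chrng and Myh3 by stage, with filled points for left sides and open points for right sides of an embryo, joined by a line, and the mean with SD of 4 embryos in black. Grey bands are the 95th percentile of olfactory receptor probes over the arrays of a stage. By the mean of both sides, embryo 3 is the highest of the E12.5 embryos in all 4 panels.

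Over the 10 genes, each measured by its brightest probe, 0 passed in E10.5 against E8.5, where 8.18% of all probes passed (3.62% higher and 4.56% lower at the later stage). For E12.5 against E10.5 0 genes passed, against 7.95% of probes (4.74% higher and 3.21% lower), and 1 gene, Chrng, passed as higher for E12.5 against E8.5, where 18.3% of probes passed, 8.72% higher and 9.62% lower. At an unadjusted p under 0.05 there were 2, 2 and 3 of the 15 probes in these comparisons, against 17.7%, 17.6% and 27.8% of all probes. The median log2FC of the 10 genes was −0.00, 0.01 and −0.05, beside −0.00, −0.01 and −0.01 over all probes. By overlap, Tnnt1 was the 1 gene whose embryos at E10.5 all lay under those at E8.5, which 7.05% of all probes did. Acta1 lay wholly higher at E12.5 than at E10.5, as 6.26% of probes did, and Chrnd wholly lower, as 6.05% did, within the blank range. Myf5 and Chrnd lay wholly lower at E12.5 than at E8.5, as 11.4% of probes did. With the embryo as a random block over all 24 arrays, limma called 2, 1 and 1 genes, against 10.7%, 10.4% and 20.8% of all probes. It called Acta1 (adjusted p = 0.0217) and Tnnt1 (0.0324) lower at E10.5 than at E8.5, and Chrng higher at E12.5 than at E10.5 (0.0123) and at E8.5 (0.00133). That fit used 1 correlation of 0.0893 between the sides of an embryo for all probes, while the intraclass correlation of the sides was 0.930 for Chrng, 0.759 for Tnnt1 and 0.692 for Acta1.

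**Figure D3:**
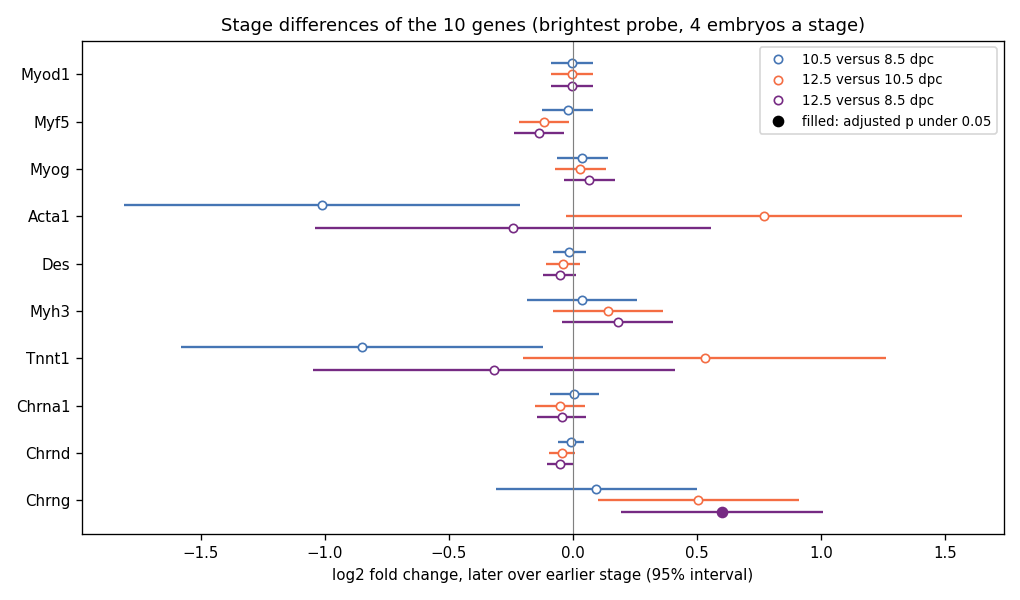
Log2 fold change of the later over the earlier stage with its 95% interval for the brightest probe of each gene, from embryo means (4 embryos a stage). The filled point, Chrng at E12.5 against E8.5 with 0.60, is the one with an adjusted p under 0.05.

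The promoters of the 3 genes above the blank level are shown because embryo 3 was the highest at E12.5 for each of them. Of the 10 genes, 8 matched the RefSeq promoter windows (GRCm38.p6, 300 bases on the gene's strand). Capitals mark the E-box CANNTG, the motif that basic helix-loop-helix factors bind, and in Acta1 also a serum response element. The windows are chr1:87205561-87205860 (+) for Chrng, chr7:4515926-4516225 (−) for Tnnt1 and chr8:123894726-123895025 (−) for Acta1, each written 5′ to 3′.
Chrng: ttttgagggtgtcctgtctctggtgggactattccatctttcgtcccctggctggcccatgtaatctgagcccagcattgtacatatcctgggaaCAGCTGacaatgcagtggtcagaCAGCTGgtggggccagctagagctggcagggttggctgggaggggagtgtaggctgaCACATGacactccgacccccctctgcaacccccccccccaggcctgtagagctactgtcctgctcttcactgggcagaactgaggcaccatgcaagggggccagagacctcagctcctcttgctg
Tnnt1: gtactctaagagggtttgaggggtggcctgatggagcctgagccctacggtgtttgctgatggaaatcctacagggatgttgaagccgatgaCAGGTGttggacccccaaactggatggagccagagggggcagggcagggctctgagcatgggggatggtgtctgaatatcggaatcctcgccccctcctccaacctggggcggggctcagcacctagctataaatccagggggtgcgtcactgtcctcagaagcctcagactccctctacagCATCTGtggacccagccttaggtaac
Acta1: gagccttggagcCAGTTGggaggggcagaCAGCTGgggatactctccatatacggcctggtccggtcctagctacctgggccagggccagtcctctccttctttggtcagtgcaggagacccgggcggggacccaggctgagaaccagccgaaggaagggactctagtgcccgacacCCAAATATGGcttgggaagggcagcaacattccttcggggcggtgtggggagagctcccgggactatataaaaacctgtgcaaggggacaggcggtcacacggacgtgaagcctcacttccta
Searched on both strands, CANNTG was in 7 of the 8 windows and in 72.3% of all 32851 promoter windows. Its form CAGCTG, which the first motif includes, was in 4 of 8 (Des, Chrng, Chrna1 and Acta1) and in 16.3% of all windows. Chrng and Chrna1 each held CAGCTG 2 times, as 1.9% of windows did with 2 or more, yet Chrna1 was not above the blank level on any array. The serum response element was in 1 of 8 windows, Acta1, and in 1.63% of all windows, and the MEF2 box was in 0 of 8 and 3.19%. These matches describe letters in a window and show no binding.

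Between the E12.5 embryos the muscle genes and other tissue markers both varied. Embryo 3 was the highest of its stage for Tnnt1, Acta1 and Chrng, the genes above the blank level on 4 or more arrays. The summed signal of the 10 genes was 114, 348, 1367 and 382 in embryos 1 to 4. Most of it was Tnnt1 and Acta1, at 905 and 315 in embryo 3. In embryo 1 Tnnt1 alone, at 120, exceeded the sum, since some genes at blank add negative signals. In whole-head RNA, more muscle cells and more RNA per cell cannot be told apart. Other muscle genes were spread over the same embryos. Mylpf, a fast myosin light chain, was 39.5, 195, 422 and 114 in embryos 1 to 4, and Tnnc2, fast troponin C, was 29.7, 63.2, 238 and 80.4. Actc1, the cardiac actin that embryonic skeletal muscle also makes, was −6.75, 162, 902 and 99.4. All 3 had embryo 3 highest and embryo 1 lowest. Not every sarcomere gene did: Myh8, the perinatal myosin heavy chain, was 100.2, 48.0, 185 and 94.3, and Myh7, the slow and cardiac beta-myosin heavy chain, was 604, 342, 531 and 394, with embryo 1 highest.

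Markers of other head and trunk tissues moved among these embryos too. Twist1, a cranial mesenchyme transcription factor, was 59.2, 521, 848 and 609 in embryos 1 to 4. The lens crystallin Cryba1 was −13.3, 1286, 1727 and 2153, so both were lowest in embryo 1. Not every mesenchyme marker was. Dcn was 607, 669, 510 and 470, lowest in embryo 4, and Prrx1 was 161, 137, 206 and 224, lowest in embryo 2. Hoxb5, a gene of the neck and trunk, was 0.742, 1346, 516 and 3.25, and Hoxa5 was −4.39, 606, 199 and 16.98. The summed signal of 20 trunk and somite markers was 337, 2367, 1196 and 494, highest in embryo 2, and most of that embryo's sum came from these Hox genes. Without them the other 18 markers summed to 340.4, 416, 482 and 473, highest in embryo 3. Meox1, a somite marker of the same list, was 3.68, 31.5, 81.6 and 28.6, with embryo 3 highest and embryo 1 lowest as in the muscle sum. Other members of the list were ordered otherwise. Uncx was 206, 192, 154 and 197, highest in embryo 1 and lowest in embryo 3. Hoxc8 was 57.3, 44.4, 73.3 and 94.5, highest in embryo 4. The part that dissection or tissue content had in the muscle signal was not tested.

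**Figure D4:**
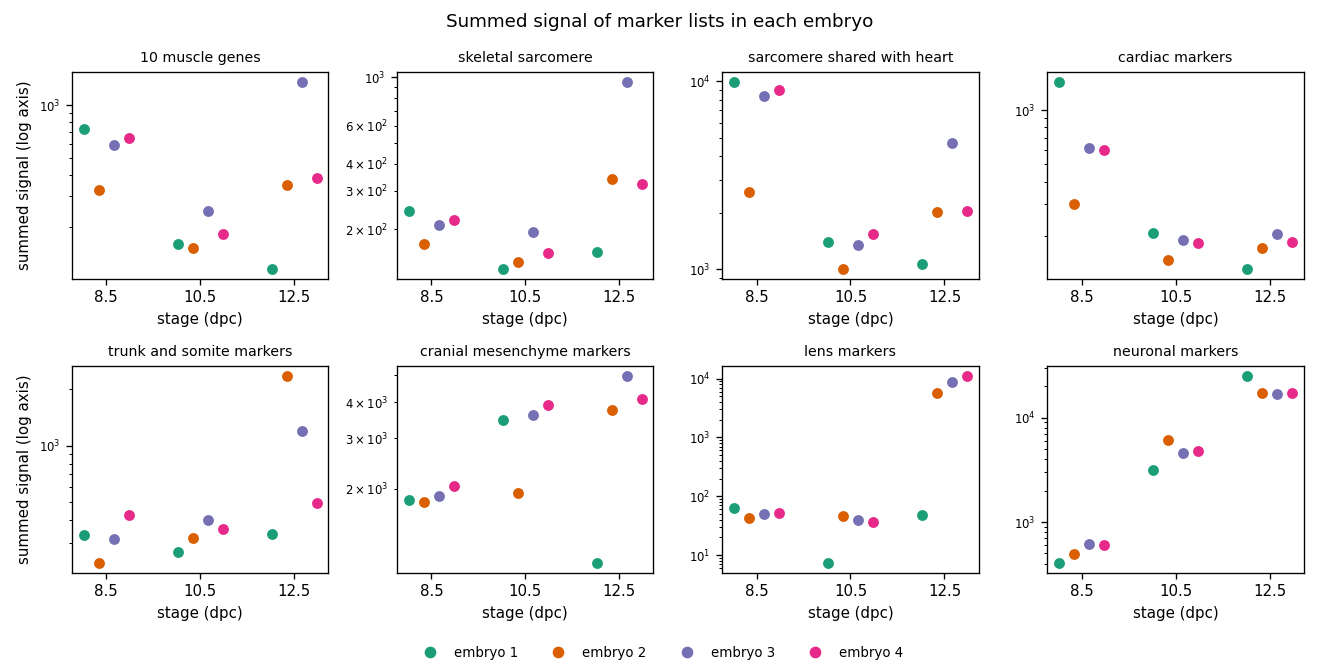
Summed normalized signal (log axis) of the 10 muscle genes and of 7 marker lists in each embryo, by stage and coloured by embryo number. At E12.5 embryo 1 is lowest for the muscle genes (114), mesenchyme (1099) and lens (48.5) and highest for neuronal markers (25230).

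At E8.5 the embryos varied with heart genes beside them. Myl7, the atrial myosin light chain, was 275, 7.38, 172 and 127 in embryos 1 to 4, and Myl3, a ventricular and slow-muscle light chain, was 934, 37.9, 381 and 514. Embryo 2 was lowest for both, as it was for Acta1. It was also lowest for Nkx2-5 (70.4, 40.8, 92.05 and 67), Gata6 (131, 102, 115 and 122) and Tbx5 (73.4, 54.3, 56.5 and 77.9). Tnni3, cardiac troponin I, was 70.8, 52.9, 45.5 and 59.0, lowest in embryo 3. Nkx2-5, Gata6, Tbx5 and Tnni3 were above the blank level on all 8 arrays at E8.5. Tbx20, a cardiac transcription factor, was 5.08, 21.5, 13.8 and 12.9, but was above the blank level on 0 of 24 arrays. Nppa, atrial natriuretic peptide, was 133, 25.5, 21.9 and 23.5, above it on 2 of 8 arrays at E8.5. No order of the embryos is read from Tbx20 or from the low values of Nppa. The 16 cardiac markers summed to 301 in embryo 2 and to 602 to 1436 in the others. The smooth muscle markers summed to 1459 in embryo 2, against 3605 to 4260 in the others. Nearly all of this was Acta2, at 1416 in embryo 2 and 3552 to 4203 in the others. The sums of all other lists except the neuronal and the neuromuscular junction genes were also lowest in embryo 2, by differing amounts. Mesenchyme markers summed to 1791 against 1821 to 2036, and upstream muscle factors to 956 against 986 to 1156. Sarcomere genes shared with heart summed to 2575 against 8382 to 9940. Tnnt1 varied less among these embryos, between 367 and 459. At E12.5 the cardiac sum was 130, 172, 204 and 185 in embryos 1 to 4, highest in embryo 3 and lowest in embryo 1 like the muscle sum, with Myl7 between 3.41 and 7.47 and Myl2, the ventricular light chain, between 5.36 and 13.2. Sarcomere genes shared with heart also peaked in embryo 3: Myl4, the embryonic and atrial light chain, was 62.1, 218, 1049 and 206, Tnnc1, slow and cardiac troponin C, was 31.1, 155, 641 and 121, and Tnnt2, cardiac troponin T, was 9.66, 45.0, 198 and 35.3. At E10.5 the cardiac sum was 147 to 208. Of the 16 cardiac markers, 2 fell at E10.5 against E8.5 and 4 fell at E12.5 against E8.5, where 4.56% and 9.62% of all probes fell. Among them were Gata6 (117.7, 23.9 and 25.7 at the 3 stages) and Nkx2-5 (67.5, 32.4 and 28.0), both cardiac transcription factors. The part of heart tissue in the Acta1 and Tnnt1 signals was not tested at either stage.

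The other genes of the muscle programme are set beside the shares of all probes that passed: 8.18% at E10.5 against E8.5, 7.95% at E12.5 against E10.5 and 18.3% at E12.5 against E8.5. Of 11 measured upstream factors, 1 fell at E10.5 against E8.5, 1 rose and 1 fell at E12.5 against E10.5, and 2 fell at E12.5 against E8.5. Mef2c, a cofactor of the myogenic regulators that heart and neurons also use, was 520 ± 54.5, 128.1 ± 33.96 and 267 ± 49.5 at E8.5, E10.5 and E12.5, with a log2FC of −1.38 (limma adjusted p = 3.5e-05) and then 0.65 (0.00437). Eya1, a transcriptional coactivator of sensory and muscle progenitors, fell to 49.9 ± 22.6 at E12.5, against 110.4 ± 21.7 at E10.5 (log2FC −0.45, adjusted p = 0.0166). Msc, a head muscle progenitor factor, was above the blank level on 24 arrays, at 135 ± 12.4, 173 ± 74.8 and 163 ± 137, and did not pass. Pax7, the factor of muscle stem cells and dorsal neural progenitors, averaged −7.08, −3.18 and −8.62.

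Of 17 skeletal sarcomere genes, 2 fell at E10.5 against E8.5 and 1 rose at E12.5 against E10.5, while 3 passed as higher and 3 as lower at E12.5 against E8.5. One of the lower calls, Tnni1, slow troponin I, was above the blank level on 0 of 24 arrays, with means of 3.21, −5.32 and −7.41 at the 3 stages, so no fall can be read from it. Myh8 rose to 107 ± 57.1 at E12.5, against −4.47 ± 6.77 at E10.5 (adjusted p = 0.0011), and was above the blank level on 8 arrays, all at E12.5. Mylpf rose to 192 ± 165 at E12.5, against 38.6 ± 3.87 at E8.5 (adjusted p = 0.0496). Tcap, which anchors titin, and Actn3, the fast alpha-actinin, fell: Tcap was 60.6 ± 8.16 and Actn3 30.7 ± 3.62 at E12.5, against 118 ± 12.9 and 66.3 ± 5.31 at E8.5 (adjusted p = 0.000108 and 0.00019). Myh1, Myh4, Mybpc2 and Neb, all genes of skeletal fibres, had means at or below 0 at every stage.

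Of 13 sarcomere genes shared with heart, 5 fell and 0 rose at E10.5 against E8.5, with a median log2FC of −0.75 beside −0.00 over all probes, and 4 fell and 0 rose at E12.5 against E8.5, with a median of −0.84 beside −0.01. Myh7 was 48.1 ± 21.8 at E10.5, against 1555 ± 779 at E8.5 (adjusted p = 0.000508). It was the 1 gene of the list to rise at E12.5 against E10.5, to 467 ± 121 (log2FC 1.79, adjusted p = 0.0131). These values are from its brightest probe. The paper describes 1 Myh7 probe with a profile close to its qRT-PCR and another with lower levels that were alike at the 3 stages. By its qRT-PCR, done on additional heads, Myh7 fell at E10.5 and was back at its E8.5 level by E12.5. The brightest probe here was still lower at E12.5 than at E8.5 (log2FC −1.26, limma adjusted p = 0.041). Among 7 genes of myoblast adhesion and fusion, 2 rose at E10.5 against E8.5, Ncam1 and Jam2, both of which other tissues express. Both also rose at E12.5 against E8.5, and Ncam1 at E12.5 against E10.5. Mymk, a fusion protein of myoblasts, averaged 12.4, 11.8 and 9.59 at the 3 stages and was above the blank level on 0 arrays. Of 14 other genes of the neuromuscular junction and calcium release, the 1 that passed in any comparison was Sypl2, a protein of muscle triads. It rose at E12.5 against E8.5 (59.7 ± 15.8 against 23.8 ± 6.02, adjusted p = 0.00363), but did not pass on right sides alone (limma adjusted p = 0.16). In embryos 1 to 4 at E12.5 it was 82.7, 55.95, 47.1 and 53.0. Sypl2 was thus highest in embryo 1 and lowest in embryo 3, the reverse of the muscle sum.

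Outside the 10 genes, the profiles most like their mean z-score over the 24 arrays were those of Meox1 (Pearson r = 0.755), Atp2a1 (0.744), Actc1 (0.725), Synpo2l (0.721), Slc16a14 (0.702), Stk35 (0.685), Tnnc1 (0.685), Eddm3b (0.682), Actn2 (0.665) and Mybph (0.656). Over the 8 arrays at E12.5 they were Slc16a14 (0.955), Klhl41 (0.95), Gjd4 (0.948), Cdc7 (0.942), Stk35 (0.942), Fndc5 (0.934), Cabp4 (0.93), Gpc6 (0.93), Nubpl (0.928) and Sfxn2 (0.925). The arrays share embryos, both sides of each, and most of the 10 genes are at blank, so these values rank profiles only. Several of the named matches are at blank too: Slc16a14, Stk35, Eddm3b, Gjd4 and Nubpl had negative means at every stage. Atp2a1, the fast-muscle calcium pump, was 2.76, 27.3, 142 and 23.1 in embryos 1 to 4 at E12.5, and Klhl41, a sarcomere-associated protein, was −6.70, 2.99, 43.4 and −9.77.

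The sides were compared because the study asked about left and right expression in the head. Within embryos, 0 of the 10 genes passed for left against right over all stages, and 0% of all probes passed. At an unadjusted p under 0.05, limma gave 0 of the 15 probes and 4141 of all probes. Acta1 averaged 119 on the left and 77.6 on the right, a log2 difference of 0.11 with a 95% interval of −0.16 to 0.38 (adjusted p = 0.818), and was higher on the left in 6 of 12 embryos. Tnnt1 averaged 339 on the left and 337 on the right, with a log2 difference of −0.05 and an interval of −0.27 to 0.17. Chrng averaged 3.80 and 1.31 on the left and right, a log2 difference of 0.02 with an interval of −0.05 to 0.09. For the difference of the sides between stages, 0 of the 10 genes and 0% of all probes passed, with 1 of the 15 probes and 919 of all probes under an unadjusted p of 0.05. Within embryos 1 and 2 alone, and within embryos 3 and 4 alone, 0 of the 10 genes passed, although 4401 and 8678 of all probes did. Within each of these pairs the right sides were 1 of the sets that principal component 2 separated from the left sides. Side and set cannot be told apart there. The fit over all embryos had no term for the sets, so their offsets in opposite directions enter its error and limit what its 0% shows.

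**Figure D5:**
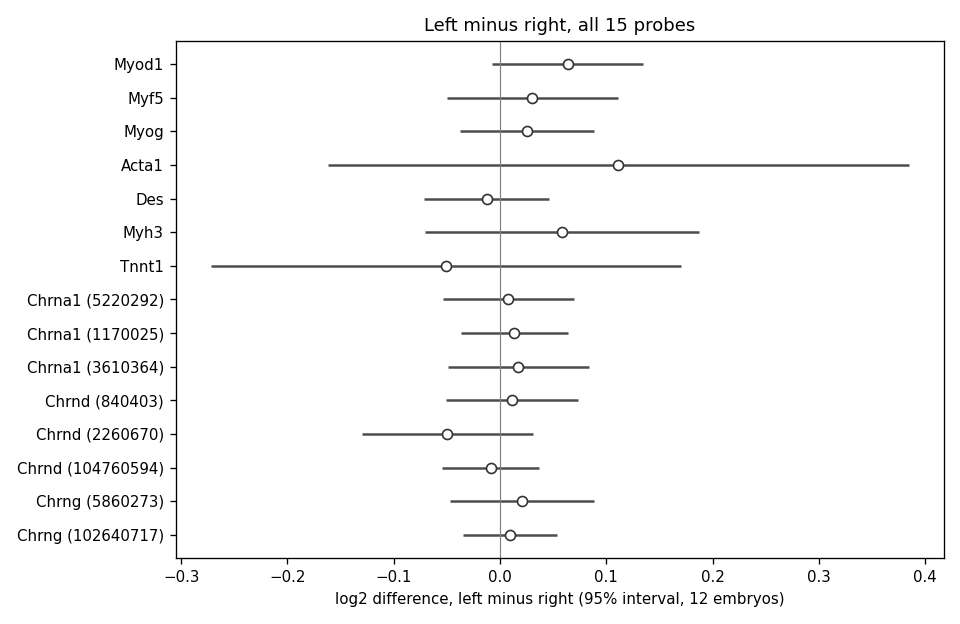
Log2 difference of left minus right with its 95% interval for each of the 15 probes, from 12 embryos with the embryo as a block. All 15 intervals include 0, and the widest, of Acta1, runs from −0.16 to 0.38.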

How the data were processed

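The authors' deposited intensities, background-subtracted by the scanner software (GenomeStudio in the submitters' processing notes), held 46643 probes and were not quantile normalized. A constant of 119.5 was added, which raised the lowest value, −103.5, to 16, and values were quantile normalized and log2 transformed. Signals are given with the constant taken off, and log2FC is computed with it included, so that a change of a dim probe comes out too small. Stages were compared with limma 3.58.1 (R 4.3.3) on the means of the 2 sides of each embryo, and sides with the embryo as a block, with Benjamini-Hochberg adjustment over all probes and an adjusted p limit of 0.05. Same-numbered embryos of different stages deviated together (r = 0.302 to 0.699), so a fit with the replicate number as a block was also made. Differently numbered embryos were not compared in this way, so these r do not show that the number is the shared unit. Embryos are separate animals.

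The members and lists were chosen with earlier results of these data known. Probes were named from the array's platform table, and a gene was measured by its brightest probe. Named from other lists were up to 4 genes that passed with the largest change, with others added after their values were seen. The 10 most similar profiles were named by Pearson r. Another table, of 72 per-sample columns tied to no sample, was not used. Scripts were tested on simulated data. Alternatives were other scalings, constants, filters, blocks, sides and left-out embryos.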

Additional observations from a re-analysis of the deposited data

Results flagged for a closer look

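Over 30 sets of 4 embryos (10 genes at 3 stages), 5 held an embryo far from the other 3, by the share of the whole range that its gap to the nearest took, where chance gives about 1.5. Acta1 had embryo 3 high at E12.5, at 315 against 42.6 to 66.3 in the others, and embryo 3 high at E10.5, at 37.7 against −1.91 to 2.42. The E10.5 value rests on the right side of embryo 3, at 73.9, while its left side was 1.5, under the blank level of 31.5. The other 3 flagged sets lay within the blank range. Myf5 at E10.5 was 8.04 in embryo 4, against 19.1 to 21.4. Myog at E8.5 was 9.51 in embryo 4, against −2.42 to −1.30. Chrnd at E8.5 was 5.43 in embryo 1, against −0.963 to −0.859.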

How the results depend on the processing

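Of 606 values of single genes under alternative settings, 579 kept their side of the threshold, 14 passed it newly and 13 lost it. No called value changed sign (0 of 606), and 13 changed sign while not called. For E10.5 against E8.5, where 0 genes passed, 2 passed with the embryo as a random block and 2 with the sets of arrays as a block (Acta1 and Tnnt1 in both). For E12.5 against E10.5, where 0 passed, 1 passed with the random block and 1 with the sets as a block (Chrng in both), and 1 with the replicate block (Myf5). For E12.5 against E8.5, where 1 passed, 0 passed with a larger added constant (Chrng log2FC 0.33, adjusted p = 0.055), 0 with dim probes left out, which removed Chrng, and 0 on right sides alone. In the same comparison 2 passed with the sets of arrays as a block and 2 with the replicate block (Chrng and Myf5 in both). Leaving out 1 embryo gave 0 to 1 genes in each of these comparisons, with Myf5 passing for E12.5 against E8.5 without embryo 4 of E10.5 (adjusted p = 0.0453). The replicate block changed no other call of the 10 genes. The replicate block moved the probes called to 6394 for E10.5 against E8.5 (3815 without it) and to 6494 for E12.5 against E10.5 (3709 without it). The probes called for E10.5 against E8.5 were 1576 on right sides alone and 7862 with the sets as a block, those for E12.5 against E10.5 were 1903, 7978 and, with median scaling, 2256, and those for E12.5 against E8.5, 8556 in all, were 4946 on right sides alone and 12902 with the sets as a block. Left against right gave 0 members called in every alternative, also with the embryo block left out, and leaving out 1 embryo gave 0 to 2 of all probes. The side difference between stages called 1 of all probes within embryos 1 and 2 alone and 1 within embryos 3 and 4 alone. Signal over blank limits 7 of the 10 genes, for which no change can be read.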
